A study of Mus musculus with 2 samples.

Results

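Interferon-stimulated genes, the genes that a cell switches on when it senses interferon, were followed through the stages of T cell development in mouse thymocytes. The set was a list of 43 gene symbols looked up in the gene table of the deposited matrices, and 42 of them were found among 31253 genes. Mx1 is not analysed here. Single-cell RNA was captured with 10x Genomics 3′ chemistry, with 1 library per genotype. The cKO library is from SETDBf/fCD4-Cre mice, in which a floxed SETDB gene is removed by a Cre recombinase driven from Cd4 control elements, and the other library is from WT mice. Both are thymus cells that had been enriched with anti-CD25 beads, and no further treatment is labelled. Which of the genes Setdb1 and Setdb2 is floxed is not labelled, and neither the number nor the age of the animals behind a library is given in the sources used here.

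Type I interferons bind the receptor chains IFNAR1 and IFNAR2, and the kinases JAK1 and TYK2 then pass the signal on to transcription factors. A complex that holds IRF9 binds interferon-stimulated response elements in the promoters of its target genes. Thymic epithelium is known to make type I interferon without infection, and thymocytes are known to gain an interferon signature late in their maturation. CD4-Cre is known to act from the end of the double-negative stage on. Here a gene is called tonic in a stage where its RNA was not concentrated in the cells highest for the other listed genes.

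Response elements can be read directly from promoter letters, so 4 promoters are shown as the 250 bases before the start site, from RefSeq on GRCm38.p6, 5′ to 3′ on the strand of the gene. Capitals mark the response element motif, a pair of GAAA runs with any 2 bases between them, searched on both strands. Isg15 is shown for the largest log2 fold of CPM plus 5 between libraries in DN (early) thymocytes, a choice made after its values were seen, Bst2 and Psmb8 for their high level there, and Ifit3b for its low level.
Isg15 (chr4:156200819-156201068, minus strand): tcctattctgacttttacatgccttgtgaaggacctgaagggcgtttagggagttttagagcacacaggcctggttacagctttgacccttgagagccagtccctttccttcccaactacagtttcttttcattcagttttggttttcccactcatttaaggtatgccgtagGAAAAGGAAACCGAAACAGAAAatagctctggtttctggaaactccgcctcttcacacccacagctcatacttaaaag
Bst2 (chr8:71537473-71537722, minus strand): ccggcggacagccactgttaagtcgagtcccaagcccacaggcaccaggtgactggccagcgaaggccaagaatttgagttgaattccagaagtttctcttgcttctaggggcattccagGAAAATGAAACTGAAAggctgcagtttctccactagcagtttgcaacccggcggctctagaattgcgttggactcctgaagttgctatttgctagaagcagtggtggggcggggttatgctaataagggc
Ifit3b (chr19:34607707-34607956, plus strand): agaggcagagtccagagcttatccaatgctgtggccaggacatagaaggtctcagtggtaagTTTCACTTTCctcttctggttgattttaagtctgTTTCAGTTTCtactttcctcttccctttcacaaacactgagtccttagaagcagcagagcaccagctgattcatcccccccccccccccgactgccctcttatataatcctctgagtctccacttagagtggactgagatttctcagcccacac
Psmb8 (chr17:34197945-34198194, plus strand): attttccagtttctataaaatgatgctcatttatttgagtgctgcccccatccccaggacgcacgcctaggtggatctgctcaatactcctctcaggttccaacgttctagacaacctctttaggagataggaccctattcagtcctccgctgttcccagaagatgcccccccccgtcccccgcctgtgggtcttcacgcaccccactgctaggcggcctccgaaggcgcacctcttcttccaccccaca
Isg15 holds 3 overlapping matches, Bst2 holds 2 that overlap, Ifit3b holds 2 on the opposite strand, and Psmb8 holds none. Of 33 members with a RefSeq promoter, 18 had the motif between 250 bases before and 50 bases after the start, which is 54.5%, against 3.99% of 27025 genes. The motif TTCNNNGAA, which STAT dimers bind and which reads alike on both strands, was present in 7 of the 33, or 21.2%, against 9.55% of genes. A match describes letters and does not show binding.

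Cells were assigned to stages by raw UMIs of marker genes that are not members, and the first rule met decided. The gates were double-negative cells (DN, early thymocytes with at most 1 UMI of Cd4 and Cd8), cycling cells, double-positive cells (DP, with Cd4 or Cd8 and Rag1), post-selection cells, Foxp3-positive cells, mature cells and B cells. In that order they held 1478, 1410, 2955, 251, 328, 208 and 15 cKO cells, against 2028, 1672, 1985, 208, 331, 185 and 36 WT cells. A gate set by markers of other lineages held 188 cKO and 179 WT cells, and 539 cKO and 365 WT cells met no rule. Most cells of the other-lineage gate carried T lineage RNA, so its name describes the rule and not the cells. Cd3e had a UMI in 169 of its cKO and 165 of its WT cells. Il2ra had one in 159 cKO and 159 WT cells, and C1qa in 16 cKO and 10 WT cells. Cell numbers follow the bead enrichment and do not give the makeup of a thymus. Kept cells had a median of 4653 UMIs in cKO and 7700 in WT, and 13 cell barcodes occurred in both libraries. Levels are given as UMIs per 1000000 UMIs of the gate and library (CPM), counted at the 3′ end and not scaled by length.

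With 1 library per genotype there is no test between genotypes. Every interval is a 95% interval that covers counting error only. A difference between the libraries cannot be told apart from one between animals, bead enrichments or captures.

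Markers of the stages were checked in each gate, and some of them are given here. Rag1 stood at 1545 CPM in cKO and 1502 CPM in WT in DP cells and at 1.39 CPM in cKO and 5.77 CPM in WT in mature cells. Klf2, a gene of thymocytes ready to leave, stood at 1312 CPM in cKO and 1084 CPM in WT in mature cells and at 31.4 CPM in cKO and 23.6 CPM in WT in DN cells. The 4 pan-T genes summed to between 5056 and 13417 CPM in the T lineage gates of cKO and to between 4838 and 13958 CPM in those of WT. The 5 regulatory T cell (Treg) markers Foxp3, Il2ra, Ctla4, Ikzf2 and Tnfrsf18 summed to 2511 (cKO) and 2710 (WT) CPM in Foxp3-positive cells. They summed to 2068 (cKO) and 1992 (WT) CPM in mature and 1434 (cKO) and 1505 (WT) CPM in post-selection cells. Mature cells thus carried much Treg marker RNA without a Foxp3 UMI, so the mature and Foxp3-positive gates cannot be read as separate stages. Rag1, Klf2, Foxp3 and Il2ra also helped to form some gates, so their levels describe the gates. The pan-T genes Cd3e, Cd3d, Trbc1 and Trbc2 were in no gate rule. Setdb1 stood at 32.5 CPM in cKO and 35.4 CPM in WT in DN cells and at 22.3 CPM in cKO and 28.1 CPM in WT in mature cells, and Setdb2 at 6.18 CPM in cKO and 6.77 CPM in WT in DN cells. A 3′ read does not report on an excised exon, so these levels check nothing about the deletion.

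A few barcodes in the thymocyte gates carried RNA of MHC class II genes, which antigen-presenting cells express. Barcodes with at least 3 UMIs of H2-Aa numbered 3 in cKO and 8 in WT in the DN gate and 3 in cKO and 1 in WT in the cycling gate. There were 6 in the cKO DP gate, 2 in the cKO mature gate and 2 in the WT post-selection gate, and 0 in the WT DP, WT mature and cKO post-selection gates. In the DN gate these barcodes had 24184 CPM of Cst3, a gene high in dendritic cells, in cKO and 11757 CPM in WT. The 6 myeloid markers summed to 307 CPM in cKO and 276 CPM in WT in DN, to 265 CPM in cKO and 179 CPM in WT in DP, to 150.2 CPM in cKO and 632 CPM in WT in post-selection and to 259 CPM in cKO and 156 CPM in WT in mature cells. Without the H2-Aa barcodes they summed to 150.2 CPM in cKO and 149.9 CPM in WT post-selection cells. Values without these barcodes, an alternative added after the data were seen, are given where they change a call or turn the direction of a member described.

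The summed RNA of the 42 members was highest in Foxp3-positive and mature cells and lowest in cycling and DP cells. Summed over the 42 members, DN cells had 2431 CPM in cKO and 3402 CPM in WT. Cycling cells had 1592 CPM in cKO and 1971 CPM in WT, and DP cells had 1500 CPM in cKO and 1746 CPM in WT. Post-selection cells had 2185 CPM in cKO and 2985 CPM in WT. Foxp3-positive cells had 5701 CPM in cKO and 6341 CPM in WT, and mature cells had 5171 CPM in cKO and 5219 CPM in WT. This sum was thus lower in DP than in DN cells of each library and higher again in post-selection cells.

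Psmb8, Psmb9, Bst2, Ifi27 and Ifi27l2a, the 5 members of highest level, held 68.0% of all member UMIs in cKO and 64.3% in WT. The other 37 members summed to 898, 376, 718, 653, 1984 and 1961 CPM in DN, cycling, DP, post-selection, Foxp3-positive and mature cells of cKO. In the same order they summed to 1462, 573, 805, 1017, 2042 and 1815 CPM in WT. DN cells came after Foxp3-positive and mature cells in both libraries. The post-selection over DP ratio of the 37 was 0.909 (0.847 to 0.974) in cKO and 1.26 (1.19 to 1.34) in WT, so the higher post-selection sum in cKO lay in the 5 members of highest level. Without the H2-Aa barcodes the 2 gates lay closer for the 37 members. They then had 653 CPM in post-selection and 677.5 CPM in DP cells of cKO, and 899 and 805 CPM in WT.

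**Figure D1:**
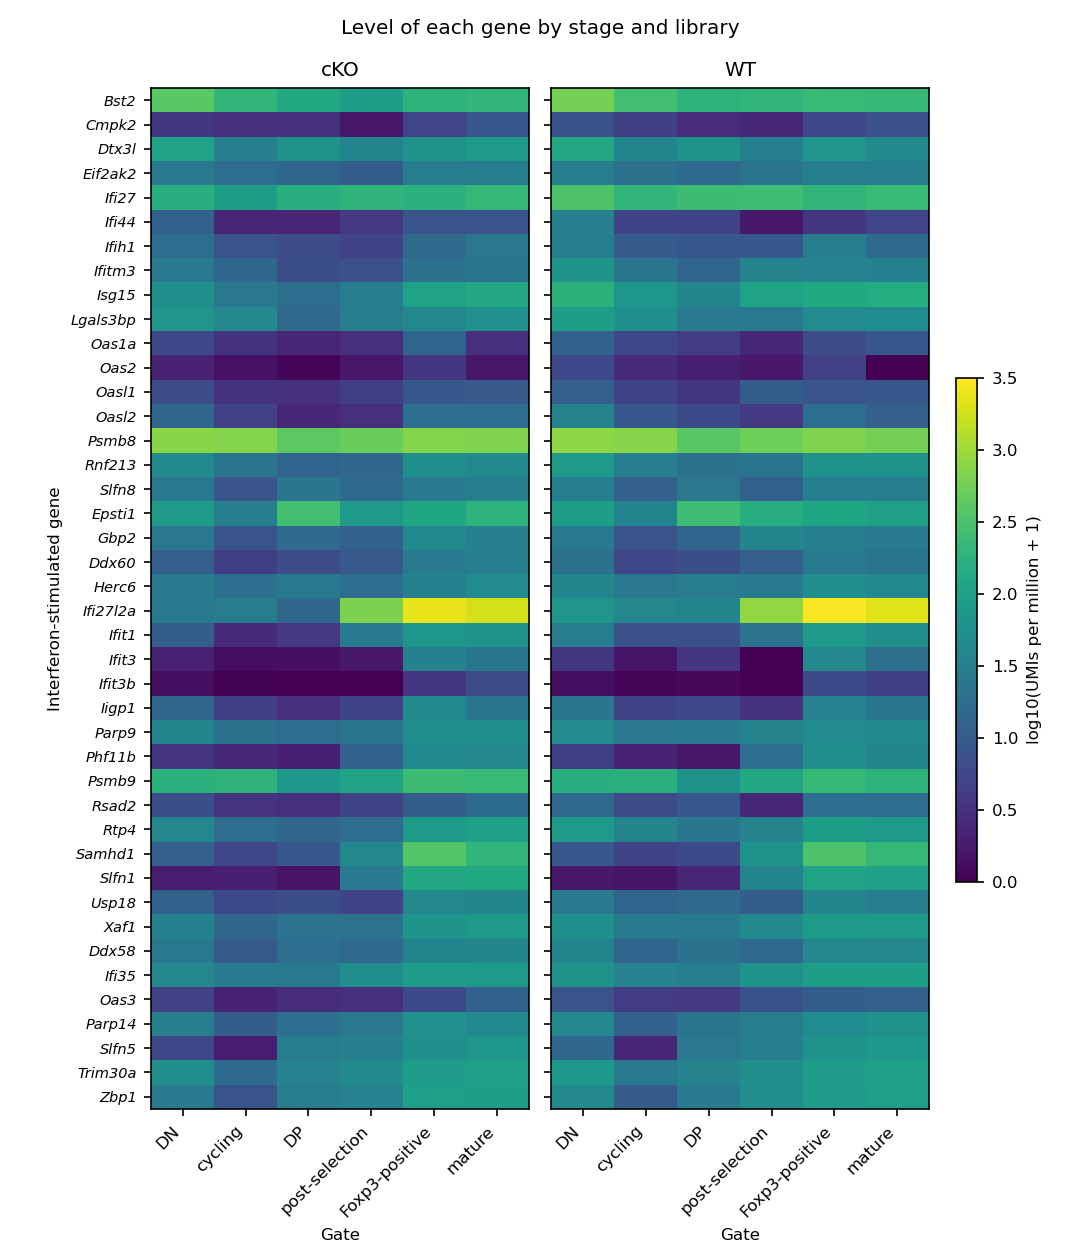
Level of each of the 42 members (rows, ordered by the gate where WT was highest) in 6 gates (columns), cKO left and WT right, as log10 of CPM plus 1. Ifi27l2a and Samhd1 brighten toward the right of each panel, Psmb8 is bright in every column, and Epsti1 is brightest in the DP column of both panels.

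Within each library members were more often at least 2-fold higher in DN than in DP cells than all genes were. DN cells were at least 2-fold above DP cells for 11 of 38 members in cKO and 13 of 41 in WT, against 5.88% of all genes in cKO and 6.11% in WT. The 11 shared by both libraries were Bst2, Ifi44, Ifih1, Ifitm3, Iigp1, Isg15, Lgals3bp, Oasl2, Psmb9, Rnf213 and Rtp4. In the other direction 2 members in cKO and 1 in WT were at least 2-fold lower in DN than in DP cells, against 8.93% of genes in cKO and 7.33% in WT, and Epsti1 was lower in both. The summed members had a DN over DP ratio of 1.62 (1.59 to 1.66) in cKO and 1.95 (1.91 to 1.99) in WT, and the 37 members had 1.25 (1.21 to 1.29) in cKO and 1.81 (1.76 to 1.87) in WT.

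Mature cells stood further above DP cells. At least 2-fold higher were 26 of 39 members in cKO and 20 of 39 in WT, against 6.5% of genes in cKO and 6.07% in WT. Against post-selection cells, 28 of 35 members in cKO and 14 of 36 in WT were at least 2-fold higher in mature cells, where 3.32% of genes in cKO and 1.67% in WT were. Against DN cells, 14 of 40 members in cKO and 7 of 41 in WT were at least 2-fold higher in mature cells, where 6.25% of genes in cKO and 5.17% in WT were. The 7 of both libraries were Ifi27l2a, Ifit3, Phf11b, Samhd1, Slfn1, Slfn5 and Zbp1. At least 2-fold lower in mature than in DN cells were 1 member in cKO and 4 in WT, against 6.8% of genes in cKO and 7.48% in WT, and Bst2 was lower in both.

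Cycling cells stood below DN cells. The difference was at least 2-fold for 15 of 41 members in cKO and 19 of 41 in WT, against 4.89% of genes in cKO and 5.93% in WT, and 0 members were 2-fold higher. The 37 members had a cycling over DN ratio of 0.419 (0.409 to 0.429) in cKO and 0.392 (0.385 to 0.398) in WT. Cycling cells were also the deepest, with a median of 27034 UMIs in cKO and 28728 in WT, against 8708 in cKO and 8884 in WT DN cells. The part of RNA content per cell in this difference was not tested.

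A first group of members was highest in DN cells of both libraries. These 6 were Bst2, Psmb8, Dtx3l, Lgals3bp, Ifitm3 and Ifi44. Psmb8 varied little by stage, its highest gate being 1.86-fold above its lowest in cKO and 1.97-fold in WT. In cKO the next gate was Foxp3-positive for Psmb8 and for Ifi44. Ifi44 had 11.2 CPM in DN cells of cKO and 7.33 CPM, from 17 UMIs, in Foxp3-positive cells. In cKO the mature over DN ratio of 3 of them was not separated from 1 by counting error, at 0.883 (0.698 to 1.10) for Lgals3bp, 0.836 (0.560 to 1.21) for Ifitm3 and 0.624 (0.294 to 1.18) for Ifi44, against 0.553 (0.427 to 0.704), 0.524 (0.382 to 0.704) and 0.134 (0.0489 to 0.293) in WT. Bst2 encodes tetherin, which holds budding virus at the membrane, and from DN to mature cells had 408, 206, 131, 90.1, 182 and 200 CPM in cKO. In WT it had 580.3, 274, 183, 194, 228 and 218 CPM. DN cells were the highest gate in both. Lgals3bp, a secreted glycoprotein that binds galectins, had 66.3 CPM in cKO and 88.7 CPM in WT DN cells and 15.2 (cKO) and 25.4 (WT) CPM in DP cells. Dtx3l, a ubiquitin ligase that partners PARP9, had 104 CPM in cKO and 129 CPM in WT DN cells and 32.3 (cKO) and 36.5 (WT) CPM in cycling cells.

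A second group was low until selection and high afterwards. Ifi27l2a, a small interferon-induced membrane protein, had 25.8, 29.6, 13.9, 644, 2408 and 1890 CPM in cKO along the gates. In WT the levels were 66.2, 40.2, 36.6, 849, 2992 and 2180 CPM. It was the most abundant member in post-selection, Foxp3-positive and mature cells. Samhd1, which breaks down deoxynucleotides, had 10.2, 4.53, 7.96, 42.6, 362 and 197 CPM in cKO. WT cells had 7.99, 4.30, 5.05, 60.7, 329 and 213 CPM. Slfn1, a Schlafen gene known from resting T cells, had 0.843 CPM in cKO and 0.713 CPM in WT DN cells and 131 (cKO) and 98.8 (WT) CPM in mature cells. Phf11b had 2.46 CPM in cKO and 3.41 CPM in WT DN cells and 46.1 (cKO) and 50.3 (WT) CPM in Foxp3-positive cells. Without the H2-Aa barcodes Samhd1 had 4.68 CPM in cKO and 5.05 CPM in WT DP cells, which turned its order there, and Phf11b had 1.41 (cKO) and 1.84 (WT) CPM in DN cells.

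The immunoproteasome genes were present at every stage. Psmb8, a catalytic subunit that shapes peptides for MHC class I, had 765, 703, 411, 502, 706 and 672 CPM in cKO. The WT levels were 801, 719, 407, 533, 664 and 594 CPM. Psmb9, a second catalytic subunit, had 189 CPM in cKO and 163 CPM in WT cycling cells, 72.6 (cKO) and 61.1 (WT) CPM in DP and 248 (cKO) and 222 (WT) CPM in Foxp3-positive cells. Both genes were lowest in DP cells of either library.

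Epsti1, an interferon-induced gene first known from breast epithelium, was highest in DP cells. It had 83.4, 31.6, 278, 76.1, 118 and 179.8 CPM in cKO. In WT these were 91.0, 37.4, 255, 150.3, 116 and 100.2 CPM. Without the H2-Aa barcodes it had 248 CPM in cKO and 255 CPM in WT DP cells and 108 (cKO) and 100.2 (WT) CPM in mature cells.

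**Figure D2:**
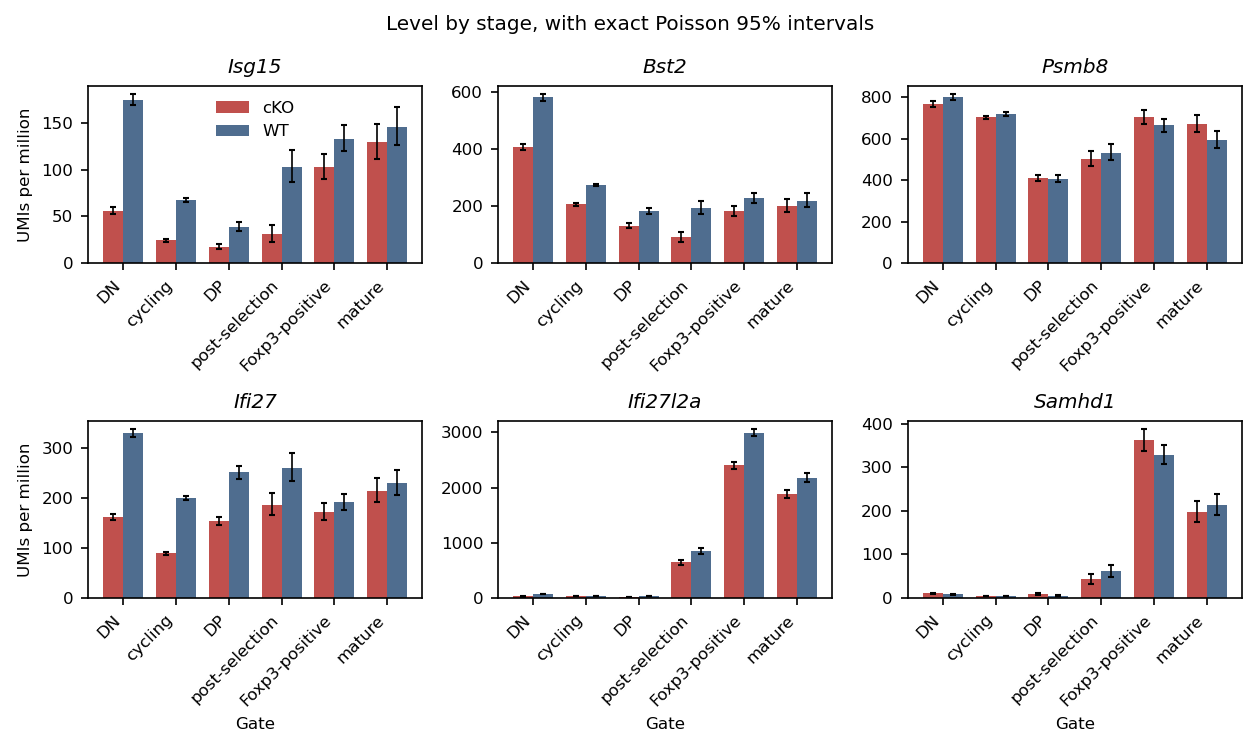
Levels of 6 members (CPM, axis from 0) in 6 gates, cKO bars left of WT bars, with exact Poisson 95% intervals. Isg15, Bst2 and Ifi27 stand lower in cKO than in WT DN cells, the Psmb8 bars of the libraries lie close in every gate, and Ifi27l2a and Samhd1 are highest in Foxp3-positive cells.

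The stage of highest level was read for each member. The same count was not made over all genes, so the counts describe the list only. Foxp3-positive and mature cells held 2320362 and 1434846 UMIs in cKO and 2702302 and 1386778 in WT. DN cells held 14241462 UMIs in cKO and 19643110 in WT, so low members are placed less surely in the smaller gates. DN cells were highest for 6 members in cKO and 17 in WT, and Foxp3-positive or mature cells for 35 in cKO and 23 in WT. All 23 of these WT members were also highest there in cKO. The 11 members highest in DN cells in WT but not in cKO were Isg15, Ifi27, Ifih1, Oasl1, Oasl2, Oas1a, Oas2, Rnf213, Slfn8, Eif2ak2 and Cmpk2. For several of them mature and DN cells did not differ beyond counting error. The WT mature over DN ratio was 0.996 (0.716 to 1.35) for Eif2ak2, 0.926 (0.658 to 1.27) for Slfn8 and 0.988 (0.442 to 1.94) for Cmpk2, and the cKO ratio was 1.01 (0.777 to 1.31) for Rnf213. Oas2 had 6 cKO and 10 WT UMIs in Foxp3-positive cells, its highest gate in cKO, which is too few to place it. The mature over DN interval of Isg15 lay clear of 1 in both libraries, with 2.32 (1.97 to 2.72) in cKO and 0.833 (0.719 to 0.960) in WT, and so did that of Ifi27, with 1.33 (1.18 to 1.499) in cKO and 0.696 (0.620 to 0.779) in WT. These intervals leave out spread between cells. Outside the 5% of cells highest for the other members, WT Isg15 had 119.6 CPM in DN and 112.3 CPM in mature cells, a narrower gap. In cKO it had 38.3 CPM in DN and 79.6 CPM in mature cells there. No member stood at least 2-fold above every other gate in both libraries, and each had at least 20 UMIs in some gate.

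The libraries were then compared gate by gate, to see at which stage interferon-stimulated RNA differed between cKO and WT. In DN cells 38 of 41 members lay below WT, as did 7231 of 11769 genes, and 19 were at least 1.5-fold lower in cKO, against 0.501% of 11769 genes. At least 1.5-fold higher were 0 members, against 0.306% of genes. The members were chosen with earlier results of these data known, so these shares describe the list and are not independent support. The 57 interferon-stimulated genes outside the list, given below, had a smaller median log2 fold of −0.18 in DN cells. The median member fold was −0.50 on the log2 scale of CPM plus 5, which understates the fold of low genes, and that of all genes was −0.04. The summed members had a cKO over WT ratio of 0.715 (0.705 to 0.724) and the 37 members one of 0.614 (0.601 to 0.627).

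In cycling cells 6 of 41 were lower in cKO and 0 higher, against 0.154% and 0.186% of genes, with a median of −0.33. They were Isg15, Ifit1, Rtp4, Xaf1, Ifi27 and Usp18. The count was 15 of 41 with a pseudocount of 1 CPM. With cells thinned to 2000 UMIs it was 11 of 35, against 1.02% of genes. In DP cells 9 of 37 were lower and 0 higher, against 0.319% and 0.855% of genes, with a median of −0.20. With a pseudocount of 1 CPM 14 of 37 were lower in DP cells. With a mean over cells 4 of 37 were, against 0.35% of genes, and without the top 5% of cells 4 of 30 were. Thinning moved the median to −0.04. The 37 members had a ratio of 0.656 (0.643 to 0.669) in cycling and 0.892 (0.858 to 0.928) in DP cells.

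In post-selection cells 9 of 29 members were lower in cKO and 0 higher, against 3.98% and 3.8% of genes, with a median of −0.47. The count depended on the processing, as did the number of members passing. Without the top 5% of cells by member sum 16 of 29 were lower. In cells thinned to 2000 UMIs 4 of 17 were lower and 1 higher, against 6.78% and 7.87% of genes. Among members with at least 100 UMIs 3 of 11 were lower. Without the 2 WT H2-Aa barcodes 8 were lower and the median was −0.29. In Foxp3-positive cells 3 of 41 were lower and 2 higher, against 3.52% and 2.47% of genes, with a median of −0.10. In mature cells 0 of 38 were lower and 2 higher, against 2.8% and 4.52% of genes, with a median of 0.06. The shares in Foxp3-positive and mature cells lie near the background. Whether the difference in DN cells exceeds that in mature cells could not be tested with 1 library per genotype.

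**Figure D3:**
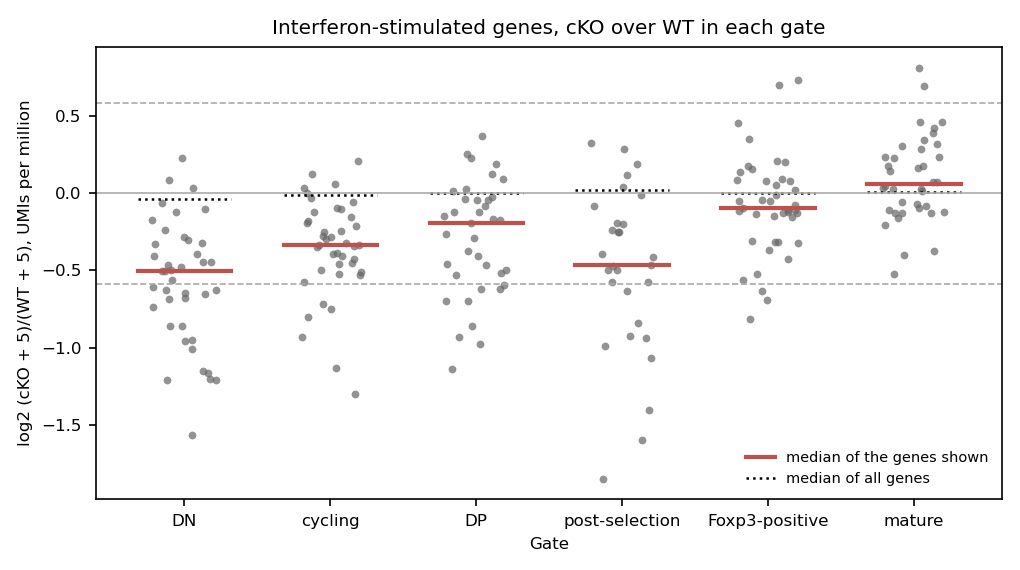
Each dot is a member with at least 20 UMIs in that gate, placed by log2 of cKO over WT (CPM plus 5), with dashed lines at 1.5-fold. The median of the members (red bar) is −0.50 in DN cells and 0.06 in mature cells, while that of all genes (dotted bar) lies near 0 in each gate.

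In the ISG15 system the ubiquitin-like protein gene Isg15 had the largest log2 fold of CPM plus 5 of all members in DN cells, and by the plain CPM ratio Oas2 lay further from 1, at 0.261 (0.148 to 0.436). Isg15 had 55.9 CPM in cKO and 175 CPM in WT DN cells, a ratio of 0.320 (0.295 to 0.345). It had 24.6 (cKO) and 67.8 (WT) CPM in cycling, 17.3 (cKO) and 39.0 (WT) CPM in DP and 30.7 (cKO) and 103 (WT) CPM in post-selection cells. Later gates lay closer, with 103 CPM in cKO and 134 CPM in WT Foxp3-positive cells and 129.6 (cKO) and 146 (WT) CPM in mature cells, where the ratio was 0.890 (0.725 to 1.09). Usp18, which removes ISG15 and restrains receptor signalling, had 11.3 CPM in cKO and 26.5 CPM in WT DN cells, 5.07 (cKO) and 12.5 (WT) CPM in cycling, 6.04 (cKO) and 15.0 (WT) CPM in DP and 39.0 (cKO) and 30.3 (WT) CPM in mature cells. Herc6, the mouse ligase for ISG15, had 26.0 CPM in cKO and 37.7 CPM in WT DN cells and 33.2 (cKO) and 51.4 (WT) CPM in Foxp3-positive cells, a log2 fold of −0.56.

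Of the 5 RNA and DNA sensors, Ifih1, Ddx60 and Zbp1 were at least 1.5-fold lower in cKO DN cells. Ifih1, which encodes the double-stranded RNA sensor MDA5, had 17.3 CPM in cKO and 30.9 CPM in WT DN cells. It had 15.1 (cKO) and 30.3 (WT) CPM in Foxp3-positive cells, a log2 fold of −0.81, and 23.7 (cKO) and 15.9 (WT) CPM in mature cells. In mature cells it rests on 34 cKO and 22 WT UMIs, with a ratio of 1.49 (0.849 to 2.68) and a log2 range of −0.09 to 0.71 over 11 alternatives, so its order there is not settled. Ddx60, a helicase gene, had 10.5 CPM in cKO and 19.8 CPM in WT DN cells and 30.7 (cKO) and 21.6 (WT) CPM in mature cells. Zbp1, a sensor of Z-form nucleic acid, had 25.8 CPM in cKO and 43.2 CPM in WT DN cells and 90.6 (cKO) and 99.5 (WT) CPM in mature cells. Ddx58, which encodes RIG-I, had 25.1 CPM in cKO and 36.9 CPM in WT DN cells, and Eif2ak2, which encodes PKR, had 26.3 (cKO) and 31.9 (WT) CPM.

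The OAS family makes a messenger that activates RNase L, or resembles the enzymes that do. Of the 5, Oasl2, Oas1a and Oas2 were at least 1.5-fold lower in cKO DN cells. Oasl2 had 13.2 CPM in cKO and 35.7 CPM in WT DN cells and 1.54 (cKO) and 5.05 (WT) CPM in DP cells. Oas1a had 4.84 CPM in cKO and 11.4 CPM in WT DN cells but 12.5 (cKO) and 5.55 (WT) CPM in Foxp3-positive cells, from 29 cKO and 15 WT UMIs. Oas2 had 1.26 CPM in cKO and 4.84 CPM in WT DN cells, Oas3 had 3.79 (cKO) and 6.97 (WT) CPM and Oasl1 had 5.69 (cKO) and 10.1 (WT) CPM. After selection each of the 5 had under 50 UMIs per gate and library, so small differences were not detectable at this depth.

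Among 9 RNA and nucleotide effectors, Ifit1, Rsad2, Slfn5 and Cmpk2 were at least 1.5-fold lower in cKO DN cells. Ifit1, which binds foreign RNA ends, had 9.90 CPM in cKO and 29.3 CPM in WT DN cells and 1.72 (cKO) and 6.29 (WT) CPM in cycling cells. In mature cells it had 63.4 CPM in cKO and 53.4 CPM in WT. Rsad2, which encodes viperin, had 5.83 CPM in cKO and 14.7 CPM in WT DN cells, 1.93 (cKO) and 8.19 (WT) CPM in DP and 9.91 (cKO) and 18.1 (WT) CPM in Foxp3-positive cells. Mature cells had near-equal Rsad2 levels, at 16.03 CPM in cKO and 17.3 CPM in WT. Cmpk2, a nucleotide kinase gene, had 2.60 CPM in cKO and 6.57 CPM in WT DN cells. Slfn5 had 4.56 CPM in cKO and 13.5 CPM in WT DN cells but 28.9 (cKO) and 23.5 (WT) CPM in DP cells, and Slfn8 had 25.3 (cKO) and 31.9 (WT) CPM in DN cells. Samhd1 and Slfn1 did not pass 1.5-fold in any of the 6 gates. Ifit3 and Ifit3b are near-identical copies whose reads the counting could split, so their values are uncertain. Ifit3 had 1.12 CPM in cKO and 2.65 CPM in WT DN cells and 33.6 (cKO) and 42.9 (WT) CPM in Foxp3-positive cells, and Ifit3b had 2.59 (cKO) and 5.18 (WT) CPM there.

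Both membrane restriction factors lay below WT in all 6 T lineage gates. The log2 range over 11 alternatives passed 0 for Ifitm3 in DP, at −0.95 to 0.08, for Ifitm3 in mature cells, at −0.66 to 0.01, and for Bst2 in mature cells, at −0.34 to 0.05. Ifitm3, which blocks viral entry, had 25.8 CPM in cKO and 63.3 CPM in WT DN cells and 6.04 (cKO) and 12.9 (WT) CPM in DP cells. In post-selection cells it had 6.29 CPM in cKO and 35.5 CPM in WT, from 9 cKO and 48 WT UMIs, and in Foxp3-positive cells 19.4 (cKO) and 34.4 (WT) CPM. In mature cells it had 21.6 CPM in cKO and 33.2 CPM in WT, a log2 fold of −0.52, which without the H2-Aa barcodes was −0.62 and past 1.5-fold. Bst2 had a ratio of 0.703 (0.680 to 0.725) in DN cells and 0.464 (0.373 to 0.576) in post-selection cells.

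The 2 GTPases measured differed by gate. Gbp2 had 23.3 CPM in cKO and 25.4 CPM in WT DN cells, 11.2 (cKO) and 37.8 (WT) CPM in post-selection cells, from 16 cKO and 51 WT UMIs, and 44.4 (cKO) and 31.1 (WT) CPM in Foxp3-positive cells, where its log2 fold ranged from −0.20 to 0.62 over the alternatives. Iigp1, an immunity-related GTPase, had 13.9 CPM in cKO and 22.9 CPM in WT DN cells and 45.2 (cKO) and 34.4 (WT) CPM in Foxp3-positive cells.

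Of the 5 ubiquitin ligases and ADP-ribosylation enzymes, Rnf213 was at least 1.5-fold lower in cKO DN cells, with 46.0 CPM in cKO and 73.7 CPM in WT. Trim30a had 51.3 CPM in cKO and 71.6 CPM in WT DN cells, Parp9 had 37.4 (cKO) and 48.4 (WT) CPM and Parp14 had 30.8 (cKO) and 42.4 (WT) CPM. In mature cells Parp14 had 45.3 CPM in cKO and 61.3 CPM in WT, while Dtx3l had 78.8 (cKO) and 46.9 (WT) CPM, a ratio of 1.68 (1.23 to 2.32). Dtx3l was thus past 1.5-fold in mature cells, with cKO above WT, and had the opposite order in DN cells, at a log2 fold of −0.31.

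Ifi27, Rtp4 and Xaf1 were lower in cKO in several early gates. Ifi27, a relative of Ifi27l2a, had 162, 89.1, 154, 187, 173 and 215 CPM in cKO along the gates. WT had 330.4, 201, 252, 261, 192 and 230 CPM. The libraries differed most in DN and cycling cells. Rtp4, a receptor transporting protein, had 40.3 CPM in cKO and 77.2 CPM in WT DN cells, 16.8 (cKO) and 36.6 (WT) CPM in cycling and 99.0 (cKO) and 79.3 (WT) CPM in mature cells. Xaf1, an antagonist of the apoptosis inhibitor XIAP, had 33.0 CPM in cKO and 53.6 CPM in WT DN cells, 13.3 (cKO) and 25.1 (WT) CPM in cycling and 20.2 (cKO) and 45.2 (WT) CPM in post-selection cells.

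Ifi44 had 11.2 CPM in cKO and 32.3 CPM in WT DN cells and, from 17 cKO and 7 WT UMIs, 7.33 (cKO) and 2.59 (WT) CPM in Foxp3-positive cells. Ifi35 had 40.9 CPM in cKO and 60.1 CPM in WT DN cells and 80.8 (cKO) and 88.7 (WT) CPM in mature cells. Epsti1 had 76.1 CPM in cKO and 150.3 CPM in WT post-selection cells and 179.8 (cKO) and 100.2 (WT) CPM in mature cells, opposite orders that are both past 1.5-fold. Without the H2-Aa barcodes, 2 WT cells in the first gate and 2 cKO cells in the second, it had 76.1 CPM in cKO and 72.6 CPM in WT post-selection cells and 108 (cKO) and 100.2 (WT) CPM in mature cells, and neither passed. Lgals3bp in DP cells lay at the limit, with a log2 fold of −0.59, and was just inside it at −0.58 without these barcodes, a near-unchanged fold.

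Neither immunoproteasome gene passed 1.5-fold in any of the 6 gates. Psmb8 had a ratio of 0.955 (0.932 to 0.979) in DN and 1.01 (0.955 to 1.06) in DP cells. Without the H2-Aa barcodes it had 399 CPM in cKO and 407 CPM in WT DP cells and 502 (cKO) and 501 (WT) CPM in post-selection cells, which turned its order in both gates. Psmb9 had a ratio of 1.06 (1.01 to 1.12) in DN, 1.16 (1.12 to 1.195) in cycling, 1.19 (1.04 to 1.36) in DP and 0.836 (0.669 to 1.04) in post-selection cells. In mature cells it was 1.28 (1.08 to 1.51), and the log2 fold there ranged from 0.33 to 0.57 over the alternatives.

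Members with and without the response element motif had similar folds in DN cells. Among those with at least 20 UMIs the median log2 fold was −0.50 for the 17 with the motif and −0.46 for the 15 without, and 8 of those with it and 5 of those without it were at least 1.5-fold lower in cKO. Of the printed promoters, Isg15 and Bst2 belong to members with log2 folds of −1.56 and −0.50, and that of Psmb8 to a member with −0.07. Ifit3b, with 2 matches, had 0.351 CPM in cKO and 0.356 CPM in WT DN cells from 5 cKO and 7 WT UMIs, too few for a fold.

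Other genes of the pathway were read from lists that hold no member. Of 9 interferon genes, Ifng was the only one with at least 20 UMIs in DN cells, with 4.78 CPM in cKO and 4.28 CPM in WT. Ifnb1, Ifna1, Ifna2 and Ifna4 had 0 UMIs in each of the 6 gates from DN to mature, so they were not detected at this depth. None of 5 receptor genes passed 1.5-fold in DN cells, and Ifnar1 had 39.7 CPM in cKO and 40.3 CPM in WT DN cells. In mature cells 1 of 5 was higher in cKO, Ifngr1, the ligand-binding chain of the interferon gamma receptor, with 174 CPM in cKO and 109 CPM in WT.

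Of 8 IRF genes, Irf7 and Irf9 were at least 1.5-fold lower in cKO DN cells. Irf7, a driver of interferon genes, had 16.1 CPM in cKO and 41.4 CPM in WT DN cells, 5.47 (cKO) and 13.3 (WT) CPM in cycling and 16.8 (cKO) and 37.8 (WT) CPM in post-selection cells. Irf9, a DNA-binding part of the complex that type I interferon activates, had 30.5 CPM in cKO and 49.5 CPM in WT DN cells and 34.2 (cKO) and 54.8 (WT) CPM in post-selection cells. Irf8, known from myeloid and B cells, passed in the opposite direction in mature cells, with 50.9 CPM in cKO and 23.1 CPM in WT there and 48.1 (cKO) and 23.1 (WT) CPM without the H2-Aa barcodes. Of 6 feedback genes, Socs3 passed, with 24.4 CPM in cKO and 40.8 CPM in WT. Of 8 nucleic acid sensing genes with at least 20 UMIs, Adar, an RNA editor, had 18.2 CPM in cKO and 30.1 CPM in WT DN cells and Dhx58, a relative of RIG-I, had 8.21 (cKO) and 17.7 (WT) CPM.

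A further 57 interferon-stimulated genes that are not members were read in the same way. In DN cells 7 of 54 were at least 1.5-fold lower in cKO and 0 higher, against 0.501% and 0.306% of genes, with a median of −0.18. Isg20, an exonuclease, had 23.1 CPM in cKO and 41.6 CPM in WT DN cells, and Trim12c had 32.4 (cKO) and 55.4 (WT) CPM. Ifi206 and Ifi213, of the family of the DNA sensor AIM2, had 8.21 CPM in cKO and 18.4 CPM in WT and 1.48 (cKO) and 4.79 (WT) CPM in DN cells. Ube2l6, the conjugating enzyme for ISG15, had 6.53 CPM in cKO and 12.4 CPM in WT DN cells and Phf11c had 8.21 (cKO) and 15.1 (WT) CPM. Ifi213 and Phf11c were inside the limit without the H2-Aa barcodes, at log2 folds of −0.576 and −0.584. Ifitm1 had 15.8 CPM in cKO and 29.7 CPM in WT DN cells but the opposite order in cycling cells, at 18.9 (cKO) and 10.4 (WT) CPM, and 6.42 (cKO) and 0.522 (WT) CPM in DP cells, from 50 cKO and 3 WT UMIs. Isg20 also passed in DP cells, with 11.6 CPM in cKO and 23.3 CPM in WT. In post-selection cells Tap1, which carries peptides to MHC class I, had 55.9 CPM in cKO and 95.5 CPM in WT and Ifi206 had 14.7 (cKO) and 31.1 (WT) CPM. In mature cells 1 of 47 was lower and 4 higher, against 2.8% and 4.52% of genes, with a median of 0.03. That lower gene was Ifitm2, a restriction factor of virus entry, with 27.9 CPM in cKO and 55.5 CPM in WT mature cells. Mov10, an RNA helicase, had 22.3 CPM in cKO and 13.0 CPM in WT there, and without the H2-Aa barcodes it was inside the limit at a log2 fold of 0.583. Ly6a, which encodes Sca-1, had 39.2 CPM in cKO and 109.5 CPM in WT Foxp3-positive cells against 36.3 (cKO) and 20 (WT) CPM in post-selection and 68.3 (cKO) and 33.2 (WT) CPM in mature cells, again in opposite orders.

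Whether a member was tonic was read from its level in cells that were high for the other members. In each gate and library cells were ranked by the summed UMIs, per UMI of the cell, of the 37 members other than the one examined. Its level in the top 5% of cells was then set against that in the others. A member was counted as tonic where it had at least 20 CPM in the other cells of both libraries and was under 3-fold higher in the top cells of both. These limits were set after the values were seen. Spread over cells was not measured beyond this, so a member held by few cells outside the top 5% would also pass. Epsti1 passed in the full post-selection gate with 15 WT UMIs in the top cells and 188 in the others. Without the 2 WT H2-Aa barcodes 94 WT UMIs of Epsti1 were left there in all.

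In DN cells 22 members had that level and 6 of them were tonic: Psmb8, Psmb9, Bst2, Ifi27, Dtx3l and Lgals3bp. Of all genes at that level 99.1% stayed under 3-fold. Psmb8 had 833 CPM in the top cells and 761 CPM in the others in cKO, and 908 CPM in the top cells and 796 CPM in the others in WT. Bst2 had 559.6 CPM in the top cells and 399 CPM in the others in cKO, and 1139 CPM in the top cells and 554 CPM in the others in WT. The WT ratios of the top to the other cells were 1.14 (1.06 to 1.23) for Psmb8 and 2.06 (1.92 to 2.19) for Bst2. Just inside the limit lay Dtx3l, with ratios of 1.92 in cKO and 2.79 in WT. Just outside lay Eif2ak2, with 2.52 in cKO and 3.05 in WT, and Parp9, with 2.95 in cKO and 3.23 in WT. Epsti1 had 4.68 in cKO and 3.10 in WT, and without the H2-Aa barcodes it was inside, which made 7.

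Isg15 was held more by few DN cells. In cKO it had 363 CPM in the top cells and 38.3 CPM in the others, a ratio of 9.48 (8.17 to 11.0). In WT it had 1318 CPM in the top cells and 119.6 CPM in the others, a ratio of 11.0 (10.3 to 11.8). In both libraries the top cells held about the same part of its UMIs, 35.2% in cKO and 34.8% in WT. The lower level in cKO was thus present in the top cells and in the others.

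At least 10-fold higher in the top DN cells of both libraries were 8 members, against 0.595% of all genes with at least 20 UMIs. They were Ifit1, Ifit3, Oas3, Rsad2, Slfn1, Slfn5, Cmpk2 and Phf11b, and without the H2-Aa barcodes 6, with Slfn1 and Phf11b no longer among them. Ifit1 had 94.1 CPM in the top cells and 5.19 CPM in the others in cKO, and 295 CPM in the top cells and 16.9 CPM in the others in WT. Members were ranked against the other members, so a high ratio says that they occur in the same cells.

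The tonic members of the other gates are given with those near the 3-fold limit, and differences between gates were not tested. In cycling cells 5 of 9 members at that level were tonic, Ifi27, Bst2, Lgals3bp, Psmb8 and Psmb9, against 99.4% of genes, and 8 were at least 10-fold higher in the top cells, against 0.186%. In DP cells 9 of 12 were tonic, against 99.2%, and 1, Oas3, was 10-fold higher, against 0.188%. DP cells were ranked on few UMIs. Their median was 2260 UMIs in cKO and 2487 in WT, against 27034 in cKO and 28728 in WT cycling cells. Of the DP cells 28.9% in cKO and 29.4% in WT held 0 UMIs of the 37 members. The part of depth in the DP counts was not tested, so they cannot be set against those of deeper gates. Of the cycling set Lgals3bp lay nearest the limit, with 2.82 in cKO and 2.90 in WT. The DP set added Slfn5, Slfn8, Herc6, Ifi35 and Epsti1 to Ifi27, Bst2, Psmb8 and Psmb9. Slfn8 left it without the H2-Aa barcodes. Bst2 lay just inside, with 2.10 in cKO and 2.99 in WT, and Dtx3l just outside, with 2.26 in cKO and 3.004 in WT. In post-selection cells 8 of 14 were tonic, against 97.2%, and 0 were 10-fold higher, against 0.0242%, and without those barcodes 6 were tonic, Ifi27, Bst2, Lgals3bp, Ifi35, Psmb8 and Psmb9. In the full post-selection gate Psmb9 lay just outside, with 1.90 in cKO and 3.03 in WT, and Dtx3l just inside, with 2.05 in cKO and 2.86 in WT.

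In Foxp3-positive cells 30 members had the level in both libraries but 5 were tonic, Ifi27, Ifi27l2a, Samhd1, Psmb8 and Psmb9, against 97.7% of genes. At least 10-fold higher in the top cells were 10 members, against 0.128% of genes, among them Isg15, Ifit1, Ifit3 and Rsad2. Just inside the limit lay Samhd1, with 2.80 in cKO and 2.04 in WT, and just outside Herc6, with 3.18 in cKO and 2.51 in WT. Isg15 had 969.6 CPM in the top cells and 66.4 CPM in the others in cKO, and 1345 CPM in the top cells and 89.7 CPM in the others in WT. In mature cells 9 of 29 were tonic, against 96% of genes, and Ifit3 and Rsad2 were at least 10-fold higher, against 0.0488%. The mature set was Ddx60, Dtx3l, Ifi27, Ifi27l2a, Parp9, Samhd1, Epsti1, Psmb8 and Psmb9, and without the H2-Aa barcodes 8, with Dtx3l and Epsti1 outside and Gbp2 inside. The top cells of this gate numbered 11 in cKO and 10 in WT. Ddx60 had 5 cKO and 3 WT UMIs in them, with ratios of 2.65 (0.816 to 6.73) in cKO and 2.13 (0.413 to 6.91) in WT. Parp9 had 5 and 8, with 1.40 (0.441 to 3.41) in cKO and 2.73 (1.13 to 5.76) in WT. These intervals pass 3, so both calls are unsettled. In the full mature gate Dtx3l had 2.89 in cKO and 2.95 in WT, and Slfn1, just outside, had 2.71 in cKO and 3.27 in WT. Ifi27, Psmb8 and Psmb9 were tonic in DN, cycling, DP, Foxp3-positive and mature cells.

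**Figure D4:**
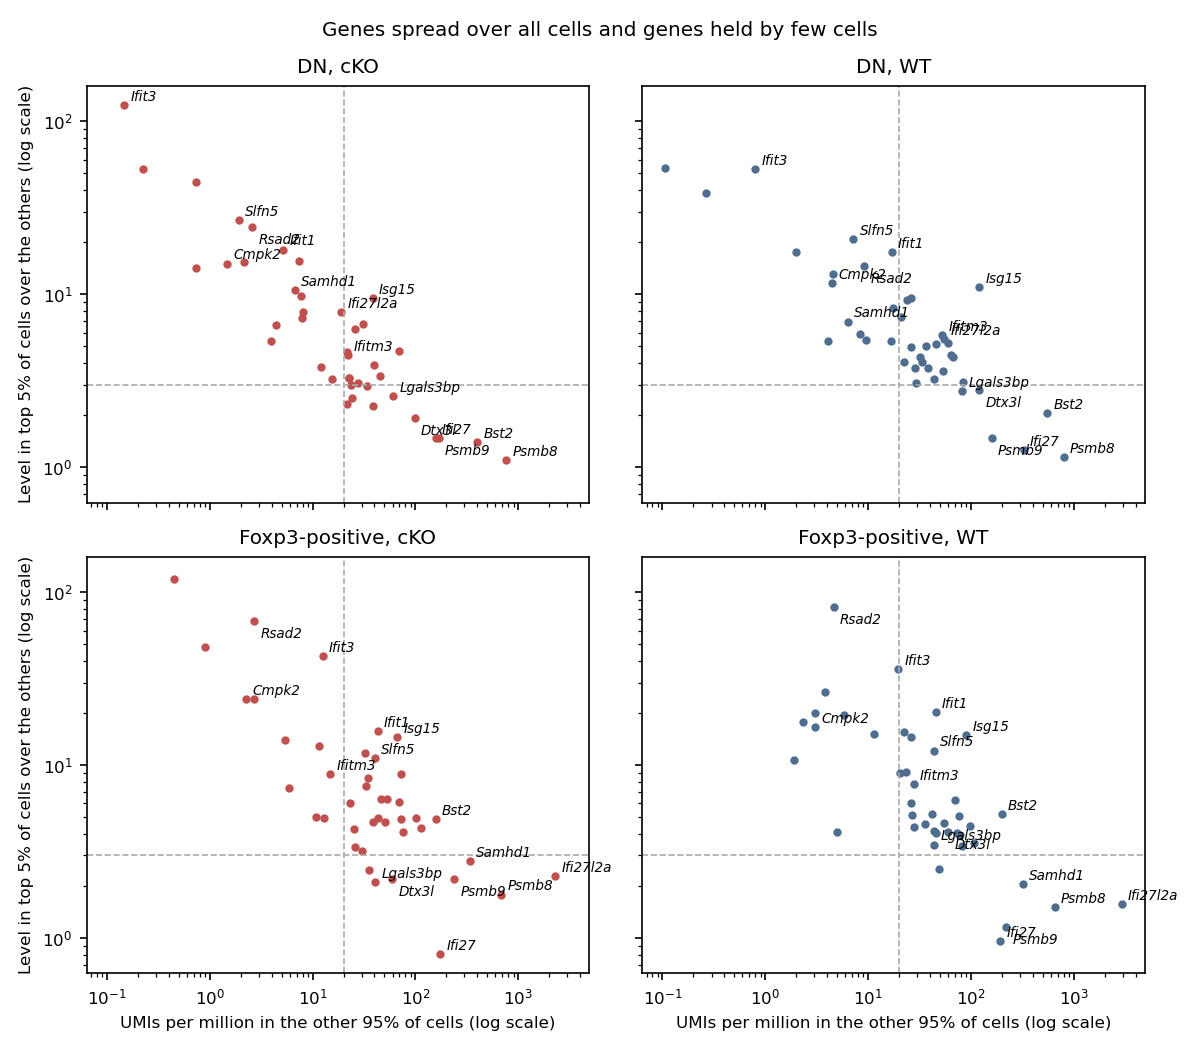
Each dot is a member, placed by its level in the other cells (CPM, log axis) and by its level in the top 5% of cells over that level (log axis), for DN cells above and Foxp3-positive cells below, cKO left and WT right. Dashed lines mark 20 CPM and 3-fold, and tonic members lie at the lower right, where Psmb8 stands in all 4 panels.

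Per cell, the 37 members had a median, in UMIs per 10000 UMIs of a DN cell, of 7.06 in cKO and 10.3 in WT. Cycling cells had 2.91 in cKO and 4.17 in WT, DP cells had 4.98 in cKO and 5.14 in WT and post-selection cells had 3.90 in cKO and 4.94 in WT. Foxp3-positive cells had 17.8 in cKO and 18.7 in WT and mature cells had 14.4 in cKO and 16 in WT. After each cell was thinned to 2000 UMIs, 7.24% (107 of 1477, 5.97 to 8.69) of cKO and 20.2% (408 of 2022, 18.4 to 21.99) of WT DN cells held at least 10 UMIs of the 42 members. In Foxp3-positive cells these shares were 56.8% (183 of 322, 51.2 to 62.3) in cKO and 67.1% (216 of 322, 61.6 to 72.2) in WT. In mature cells they were 52.2% (106 of 203, 45.1 to 59.3) in cKO and 54.6% (101 of 185, 47.1 to 61.9) in WT. Before thinning the shares were 92.4% of cKO and 97.8% of WT DN cells, 93.9% of cKO and 95.5% of WT Foxp3-positive cells, and 93.3% of cKO and 93.0% of WT mature cells. Thinning left out 1 cKO and 6 WT DN cells, and 977 cKO and 410 WT DP cells.

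**Figure D5:**
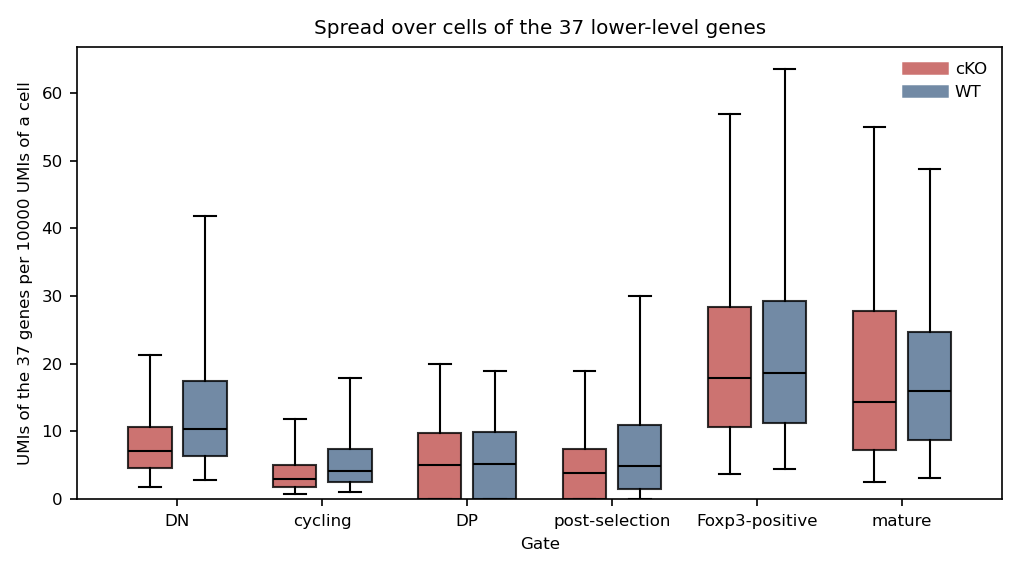
UMIs of the 37 members per 10000 UMIs of a cell, for 6 gates, cKO left of WT. Boxes span the middle 50% of cells with a line at the median, whiskers reach the 5th and 95th percentiles, and the DN box and its median lie lower in cKO than in WT.

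Gates were also split by further markers, after the data were seen. In DN cells with Kit, which marks the earliest of them, the 37 members had 1036 CPM in cKO and 1338 CPM in WT, a ratio of 0.774 (0.738 to 0.812). In DN cells without Kit they had 862 CPM in cKO and 1496 CPM in WT, a ratio of 0.576 (0.559 to 0.594), where Ptcra, the pre-T cell receptor alpha chain gene, had 0 to 2 UMIs. Where it had at least 3, they had 876 CPM in cKO and 1484 CPM in WT, a ratio of 0.590 (0.569 to 0.613). The level was lower in cKO in each of these subsets. Foxp3-positive cells with at least 2 UMIs of Klf2 and S1pr1 had 2186 CPM in cKO and 2077 CPM in WT, a ratio of 1.05 (1.01 to 1.10). The others, 27 cKO and 63 WT cells, had 797 CPM in cKO and 1926 CPM in WT, a ratio of 0.414 (0.361 to 0.472).

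B cells, 15 in cKO and 36 in WT, had 4064 CPM in cKO and 4663 CPM in WT of the 42 members. Ifi27l2a had 1548 CPM in cKO and 2175 CPM in WT B cells, Psmb8 had 495 (cKO) and 505 (WT) CPM and Psmb9 had 212 (cKO) and 268 (WT) CPM. Trim30a had 219 CPM in cKO and 128 CPM in WT, Ifi27 had 91.9 (cKO) and 155 (WT) CPM, Bst2 had 148 (cKO) and 192 (WT) CPM and Epsti1 had 163 (cKO) and 158 (WT) CPM. The cKO sum rests on 575 member UMIs, and the direction of the summed difference depended on which members were summed.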

How the data were processed

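One 10x Genomics 3′ library per genotype was analysed from the deposited count matrices, which hold raw counts of unique molecular identifiers (UMIs) per gene and cell. Cell Ranger 6.1.1, CASAVA 1.8 and Seurat 4.0.3 appear in the submitters' processing notes, and the sources used here name no genome build. A cell was kept if it had 500 genes or more, 1000 UMIs or more and no more than 10% of its UMIs from mitochondrial genes. Scrublet (scanpy 1.11.5) set its own threshold in WT, and since its threshold in cKO called 1 cell, the WT threshold was used in both, which removed 129 cKO and 148 WT cells and left 7372 cKO and 6989 WT cells. The total was 76668166 UMIs in cKO and 89370968 in WT.

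UMIs were summed per gate, gene and library and scaled to CPM. Members and lists were chosen with earlier results of these data known. Folds are log2 of CPM plus 5 in cKO over WT, for genes with at least 20 UMIs in the gate, and 1.5-fold is the limit used. Intervals are exact 95% Poisson, binomial and Clopper-Pearson intervals and cover counting error only. No test between genotypes was made. All members are accounted for, and those given by rule are the 3 of highest level and up to 6 of largest fold per gate with at least 50 UMIs; others were added to complete each role. Pathway genes are named where past 1.5-fold with at least 50 UMIs in a gate, and Ifng and Ifnar1 were named after their values were seen. Some pathway genes are not reported here.

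Alternatives changed the cell filter, doublets, gates, cell weighting, top cells, scaling, depth, pseudocount and UMI minimum. Those without the gate for other lineages, with 37 members, without H2-Aa barcodes and with split gates were chosen after seeing the data. The calculations were tested on simulated data. Python 3.11.15, numpy 2.4.6, scipy 1.17.1, pandas 2.3.3 and matplotlib 3.10.9 were used.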

Additional observations from a re-analysis of the deposited data

Results flagged for a closer look

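Epsti1 had opposite directions in 2 gates. Its cKO over WT ratio was 0.506 in post-selection cells and 1.79 in mature cells, both past 1.5-fold. The difference between the gates was not tested, since each genotype has 1 library. Without barcodes holding at least 3 H2-Aa UMIs, the ratio was 1.05 in post-selection cells and 1.08 in mature cells.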

How the results depend on the processing

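No paired analysis was possible because each genotype has 1 library, and leaving out a replicate was not possible for the same reason. In DN cells the count of members at least 1.5-fold lower in cKO lay between 17 and 23 over 13 alternatives. The summed cKO over WT ratio kept its direction in DN, cycling, DP, post-selection and Foxp3-positive cells over 11 alternatives each. Without the top 5% of cells the ratio was 0.727 in DN, 0.819 in cycling, 0.903 in DP and 0.671 in post-selection cells. Without the 100 most abundant genes in the total it was 0.731 in DN and 0.817 in cycling cells. Without the 3 members with the most UMIs it was 0.631 in DN, 0.698 in cycling, 0.674 in post-selection, 0.979 in Foxp3-positive and 1.08 in mature cells, and in B cells it turned to 1.05. With 37 members it was 0.614, 0.656, 0.892, 0.642, 0.971 and 1.08 in the 6 gates from DN to mature, and in B cells it turned to 1.15. The stricter cell filter gave 0.914 in DP, 0.927 in Foxp3-positive, 1.04 in mature and 0.638 in B cells. Thinning gave 0.818 in cycling, 0.886 in DP, 0.925 in Foxp3-positive and 0.646 in B cells. The mean of per-cell CPM gave 0.900 in DP and 0.679 in B cells, doublets kept gave 0.932 in Foxp3-positive cells, and gate minimums raised by 1 UMI gave 0.851 in post-selection cells. Without H2-Aa barcodes the ratio was 0.825 in DP and 0.772 in post-selection cells.

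The DN over DP ratio in cKO was 1.54 with the stricter filter, 1.58 with doublets, 1.83 as a mean over cells, 1.73 without the top cells, 1.91 without the 100 genes, 1.78 thinned, 1.30 without 3 members, 1.25 with 37 and 1.67 without H2-Aa barcodes. In WT it was 1.87 with doublets, 1.91 with raised gates, 2.33 as a mean over cells, 2.15 without the top cells, 2.23 without the 100 genes, 2.21 thinned, 1.75 without 3 members and 1.81 with 37.

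Counts of members lower in cKO moved more in the other gates. A pseudocount of 1 CPM gave 15 of 41 in cycling, 14 of 37 in DP, 6 of 41 in Foxp3-positive and 1 of 38 in mature cells. Thinning gave 11 of 35 in cycling cells, against 1.02% of genes, and 4 of 17 in post-selection cells, against 6.78%. The mean of per-cell CPM gave 4 of 37 in DP cells, against 0.35% of genes, and 1 of 41 in Foxp3-positive cells, against 5.42%. Without the top cells there were 4 of 30 in DP, 16 of 29 in post-selection and 1 of 36 in mature cells. A minimum of 100 UMIs left 3 of 11 in post-selection cells. Doublets kept gave 1 of 41 in Foxp3-positive and 1 of 38 in mature cells, and raised gates gave 5 of 38 in Foxp3-positive cells. In mature cells the stricter filter gave 1 of 36, a minimum of 1 UMI 1 of 42 and the H2-Aa alternative 1 of 38. For settings listed without a share of genes none is given, so their counts cannot be set against a background. The share of DN cells with at least 10 member UMIs was 0.609% in cKO and 2.91% in WT at 1000 UMIs a cell, and 21.0% in cKO and 45.9% in WT at 3000. The cause of these movements was not tested. Members under 20 UMIs in a gate are too shallow to place.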
